A study of Mus musculus with 18 samples.

Results

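The mitosis and spindle genes described here are 45 genes whose products carry a cell from entry into mitosis to its division, listed by name. Each gene was taken as its probe set with a single gene symbol in the platform annotation, or the one with the highest mean over the 18 arrays where there were more. This gave 44 measured members among 19938 measured genes. The level of cyclin B1 (Ccnb1) was not analysed here. Of the 44 members, 43 had 1 such probe set and Top2a had 2.

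Affymetrix arrays, on which sets of short probes each read 1 transcript or gene, measured total RNA from end-stage splenic tumours of 18 mice, with 1 array per tumour. Eμ-Myc, a transgene that puts Myc under an enhancer of the immunoglobulin heavy chain locus in B lineage cells and leads to B cell lymphoma, was present in every mouse. Of the mice, 9 are also labelled Prdm11 knockout (KO), and they were set against 9 labelled Prdm11 wild type (WT). The labels give the background strain as C57BL/6 for both genotypes, name a separate mouse for each tumour, and state no age, no treatment and no part of Prdm11 that was deleted. Whole tumours were frozen and homogenised without a stated sorting step, so an array reads every cell type in the spleen, and fewer cells of a type cannot be told apart from less RNA per cell. Levels below are log2 RMA intensities (RMA is the authors' background correction, normalization and summary of probes), and differences are KO minus WT on that log2 scale. The probe set for Prdm11 itself had a lowest level of 4.87, a median of 5.21 and a highest of 5.49 in tumours labelled KO, against 4.84, 5.33 and 5.66 in tumours labelled WT. The ranges overlapped, with a difference of -0.12 (SE 0.12, limma adjusted p = 0.868), so this probe set did not tell the labelled genotypes apart, and its place relative to the deleted part is not known here. The mean of this probe set over the 18 tumours was low, 5.27, below the 5.39 of the median gene.

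Mitosis begins when the kinase Cdk1, bound to B-type cyclins, phosphorylates its targets, and Plk1 and the Aurora kinases act with it on centrosomes, chromosomes and the spindle. Kinetochores assembled on the centromere then catch microtubules, and the spindle checkpoint holds back the anaphase-promoting complex until every chromosome is attached. Once the complex is active, separase opens the cohesin rings and the central spindle guides the cut between the daughter cells. The transcripts of most of these genes are low in resting cells and rise late in the cell cycle, through promoters in which CCAAT boxes, known to bind NF-Y, and the cell cycle genes homology region TTTGAA, known to bind MuvB complexes with B-Myb or Foxm1, are common.

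Promoter sequences were found for 36 of the 45 members in a RefSeq promoter table on GRCm38.p6, which holds 250 bases before and 50 bases after each annotated start. CCAAT was searched as CCAAT or ATTGG and the homology region as TTTGAA or TTCAAA, which covers both strands, and the motifs may overlap. Genes were counted, not starts: a gene with several annotated starts held a motif if any of its windows did. The 36 members include Ccnb1, whose level was not analysed. CCAAT was present in 27 of 36 members (75.0%), against 41.7% of the 15563 measured genes in the table and 41.1% of all 27025. TTTGAA was present in 26 (72.2%), against 17.3% of measured genes and 20.2% of all genes. Both motifs stood together in 23 members (63.9%), against 6.89% of measured genes and 7.97% of all genes. More than 1 CCAAT was held by 17 members (47.2%), against 14.3% of measured genes. The member counts with TTTGAA depend on the window. In the 150 bases before the start TTTGAA was in 11 members (30.6%), against 8.48% of measured genes, and both motifs in 9 (25.0%), against 2.34%. CCAAT was there in 26 members (72.2%), against 29.4% of measured genes. Neither motif was found in the whole windows of Birc5, Melk, Ncaph, Nuf2, Nusap1 and Plk4. Dlgap5, Incenp, Cdc25c, Aurkb, Kif20a, Foxm1, Tpx2, Smc4 and Ccna2 have no entry in the table. These are matches of letters and say nothing of binding in these tumours.

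Members of 6 role groups are shown to let the motifs be seen in place, read 5′ to 3′ on the strand of the gene from 250 bases before the start to 30 bases after it, with CCAAT or ATTGG and TTTGAA or TTCAAA in capitals. They are Ccnb2 on the minus strand (chr9:70421525-70421804), Bub1b on the plus strand (chr2:118597961-118598240), Cenpa on the plus strand (chr5:30666636-30666915), Cdca8 on the minus strand (chr4:124936888-124937167), Kif11 on the plus strand (chr19:37376132-37376411) and Kif23 on the minus strand (chr9:61946770-61947049).
Ccnb2: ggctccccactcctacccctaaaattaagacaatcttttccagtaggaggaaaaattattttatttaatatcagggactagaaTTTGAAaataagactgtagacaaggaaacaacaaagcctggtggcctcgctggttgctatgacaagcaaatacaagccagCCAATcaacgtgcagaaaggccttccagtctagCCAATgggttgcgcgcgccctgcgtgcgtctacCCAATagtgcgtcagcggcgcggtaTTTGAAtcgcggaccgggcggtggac
Bub1b: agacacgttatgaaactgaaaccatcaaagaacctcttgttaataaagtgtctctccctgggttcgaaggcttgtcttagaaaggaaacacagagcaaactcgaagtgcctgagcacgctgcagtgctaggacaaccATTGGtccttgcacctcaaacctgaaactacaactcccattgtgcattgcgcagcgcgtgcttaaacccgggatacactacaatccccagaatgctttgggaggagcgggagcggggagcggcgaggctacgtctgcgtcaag
Cenpa: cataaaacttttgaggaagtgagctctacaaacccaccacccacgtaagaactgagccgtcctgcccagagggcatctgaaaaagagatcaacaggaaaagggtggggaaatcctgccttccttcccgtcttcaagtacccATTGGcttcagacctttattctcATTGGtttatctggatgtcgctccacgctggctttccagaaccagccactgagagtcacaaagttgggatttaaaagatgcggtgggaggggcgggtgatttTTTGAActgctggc
Cdca8: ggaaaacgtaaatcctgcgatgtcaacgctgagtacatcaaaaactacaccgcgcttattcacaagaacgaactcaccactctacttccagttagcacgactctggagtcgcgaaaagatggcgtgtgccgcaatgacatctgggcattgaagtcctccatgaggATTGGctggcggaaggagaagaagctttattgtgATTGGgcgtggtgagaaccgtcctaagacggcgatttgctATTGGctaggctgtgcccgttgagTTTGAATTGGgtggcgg
Kif11: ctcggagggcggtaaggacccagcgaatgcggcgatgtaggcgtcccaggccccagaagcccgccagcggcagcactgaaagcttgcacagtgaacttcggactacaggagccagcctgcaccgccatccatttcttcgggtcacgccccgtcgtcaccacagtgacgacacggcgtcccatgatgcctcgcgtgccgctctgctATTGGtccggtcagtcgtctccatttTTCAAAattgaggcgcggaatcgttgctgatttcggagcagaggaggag
Kif23: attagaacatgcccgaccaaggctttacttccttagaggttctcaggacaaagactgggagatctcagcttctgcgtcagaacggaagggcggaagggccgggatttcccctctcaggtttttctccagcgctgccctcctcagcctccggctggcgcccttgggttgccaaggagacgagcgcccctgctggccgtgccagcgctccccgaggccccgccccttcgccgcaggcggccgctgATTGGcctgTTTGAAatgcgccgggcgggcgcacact
Ccnb2 holds 3 CCAAT boxes, 87, 54 and 21 bases before the start, and a TTTGAA on each side, 167 bases before the start and 5 bases after it. Cdca8 holds 4 ATTGG runs, of which the last overlaps its TTTGAA. In Kif11 the homology region reads TTCAAA, on the other strand, 19 bases before the start. In Kif23 the ATTGG lies 7 bases before the start and the TTTGAA 3 bases after it. Bub1b has its TTTGAA 41 bases after the start, beyond the bases printed.

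The arrays were alike in scale, with medians between 5.14 and 5.38 on the log2 scale. Over all genes, the array of WT3 correlated least with the others (median r of 0.937, against 0.958 to 0.981 for the other 17). Pan-B markers, of which 11 of 12 were measured, had mean levels of 6.78 to 8.09 in KO tumours and 6.76 to 7.92 in WT tumours, and all 11 lay above the median gene. The mean of 12 measured erythroid markers (of 15 listed) ran from 6.35 to 7.78 in KO tumours and from 7.11 to 8.98 in WT tumours. RMA intensities come without detection calls, and no marker was at 0.

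The mean level of the 44 members differed far more between tumours of 1 genotype than between the genotypes. In the KO tumours the lowest member mean was 7.12 (KO6), the median 8.19 and the highest 8.42 (KO1), and in the WT tumours the lowest was 7.60 (WT3), the median 7.99 and the highest 8.74 (WT1). The ranges overlapped, although 7 of 9 KO tumours lay above the WT median. The group means were 8.08 ± 0.41 in KO tumours and 8.07 ± 0.39 in WT tumours (SD, n = 9 each), a difference of 0.01 (SE 0.19) that was -0.03 after quantile normalization and 0.04 after centring each array on its median. Over all 18 tumours the range was 1.62, or 3.07-fold.

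**Figure D1:**
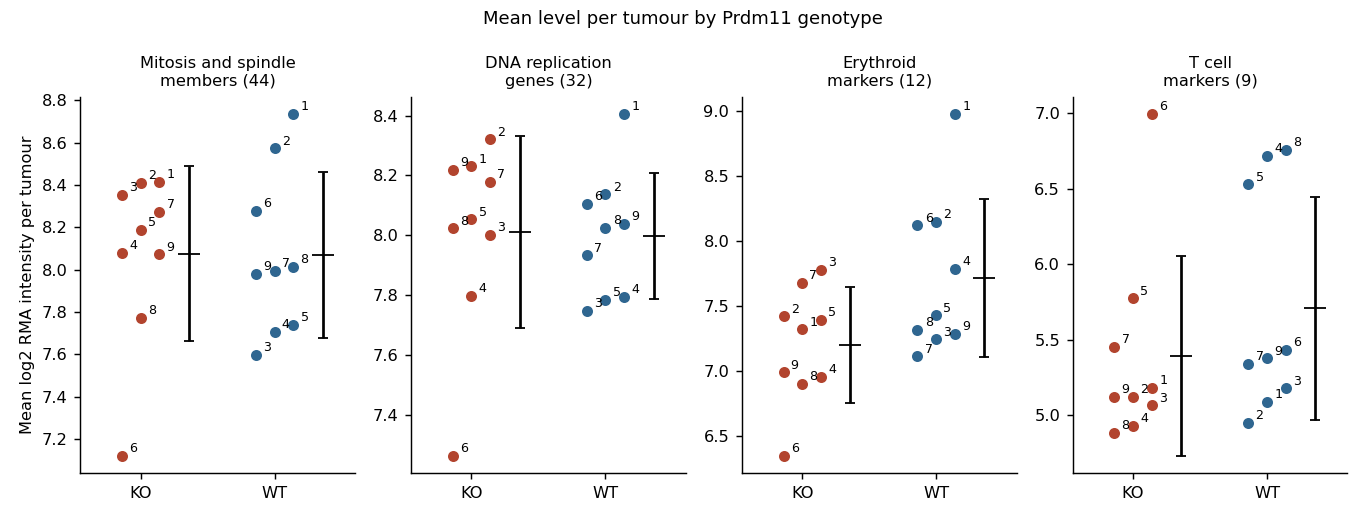
Mean log2 RMA intensity per tumour (y axis) for the 44 members, 32 DNA replication genes, 12 erythroid markers and 9 T cell markers, with KO tumours in red at the left and WT tumours in blue at the right of each panel, numbered by replicate, and the group mean with 1 SD beside them. KO6 has the lowest member mean, 7.12, and WT1 the highest, 8.74, and the same 2 tumours mark the ends of the erythroid panel.

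KO6, WT1 and WT2 stood at the ends of that spread. KO6 had the lowest level of all 18 tumours for 32 of 44 members and the lowest among KO tumours for 41, and 0 of its members lay above their own median over the 18 tumours. KO8 came next among KO tumours, with a member mean of 7.77 and 5 members above their median. At the other end, WT1 and WT2 had 41 and 39 members above their median, and WT1 was the highest of all 18 tumours for 25. KO2 and KO1 had 42 and 40 such members. After KO6 the lowest member means were those of WT3, WT4 and WT5, at 7.60, 7.71 and 7.74. Without KO6 the difference of the member mean was 0.13, and the SD of the KO tumours was 0.22.

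DNA replication genes had the same lowest and highest tumours, KO6 and WT1, but WT2 ranked 13 of 18 for them, against 17 of 18 for the member mean. All 32 listed genes were measured, and their mean ran from 7.26 (KO6) to 8.32 (KO2) in KO tumours and from 7.75 (WT3) to 8.41 (WT1) in WT tumours. KO6 was also at the end of several marker lists. It had the lowest erythroid mean (6.35) of the 18 and the highest T cell mean (6.997, over 9 of 10 markers measured). Its pan-B mean (8.09) and its endothelial and stromal mean (5.71) were also the highest. Counted from the lowest of 18, KO6 ranked 17 for NK and cytotoxic, 16 for macrophage and 4 for neutrophil markers. WT1 and WT2 had the highest and second-highest erythroid means, 8.98 and 8.15, and WT1 the lowest pan-B mean, 6.76. The part of these cell types in the member means was not tested by any measure of cell numbers.

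The members moved together from tumour to tumour. Of 946 pairs of members, 942 were positively correlated over the 18 tumours, with a median r of 0.69, and 0.60 without KO6. These correlations are a description, since all members share the array and its normalization. The correlation of a member with the mean of the other members was highest for Ncaph, a condensin subunit (0.96), Anln, the anillin scaffold of the cleavage furrow (0.95), and Kif11 (0.94), and lowest for Cenpa, the histone H3 variant of the centromere (0.43). It was above 0.7 for 36 members. A single component held 70.4% of the variance of the members, and all 44 weighed on it in the same direction. The members also varied more than other genes: the median SD over 18 tumours was 0.47, against 0.31 for genes above the median gene, and 40 of 44 exceeded that value.

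**Figure D2:**
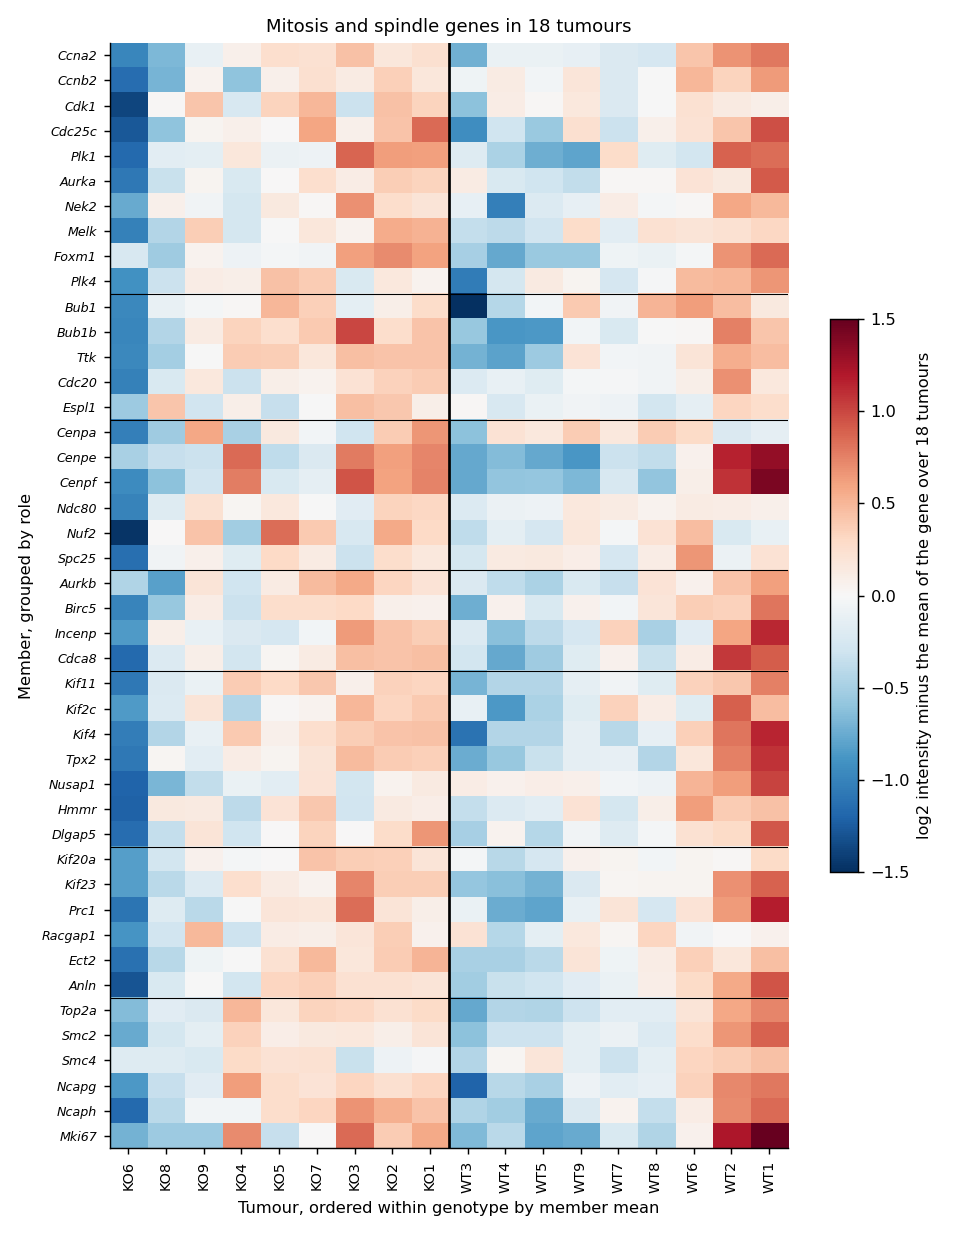
Log2 intensity of each member minus its mean over the 18 tumours (colour scale, red high and blue low), with members in rows by role and tumours in columns, KO at the left and WT at the right, each ordered by the member mean. KO6 is blue in nearly every row, and WT1 and WT2 are red in most.

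In the comparison of genotypes 0 of 44 members passed an adjusted p of 0.05 in limma, a linear model with a spread shared between genes, adjusted over all 19938 genes. In the same fit 1 gene of 19938 passed (0.00502%), Cd59a, which is no member. At an unadjusted limma p below 0.05, 0 members were higher in KO tumours, where 2.83% of all genes were, and 1 member, Nusap1, was lower, where 3.87% of all genes were. The difference was positive for 23 members and negative for 21, so that 52.3% were positive against 40.8% of all genes, and its median was 0.02 against -0.03 over all genes. The KO median lay above the WT median in 35 of 44 members, a share that was not computed over all genes. Since the members vary together over tumours, these are not 35 separate results. All 44 confidence intervals (95%) lay within 1 of 0, and the half-widths ran from 0.27 to 0.67, so a difference of 1 log2 unit lay outside every interval of this fit. In a fit with the mean of erythroid markers as a covariate the interval of 5 members, Cenpe, Cenpf, Mki67, Bub1b and Plk1, reached beyond it, up to 1.32 for Cenpe. The ranges of the genotypes overlapped in all 44 members, a count that was not made over all genes.

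**Figure D3:**
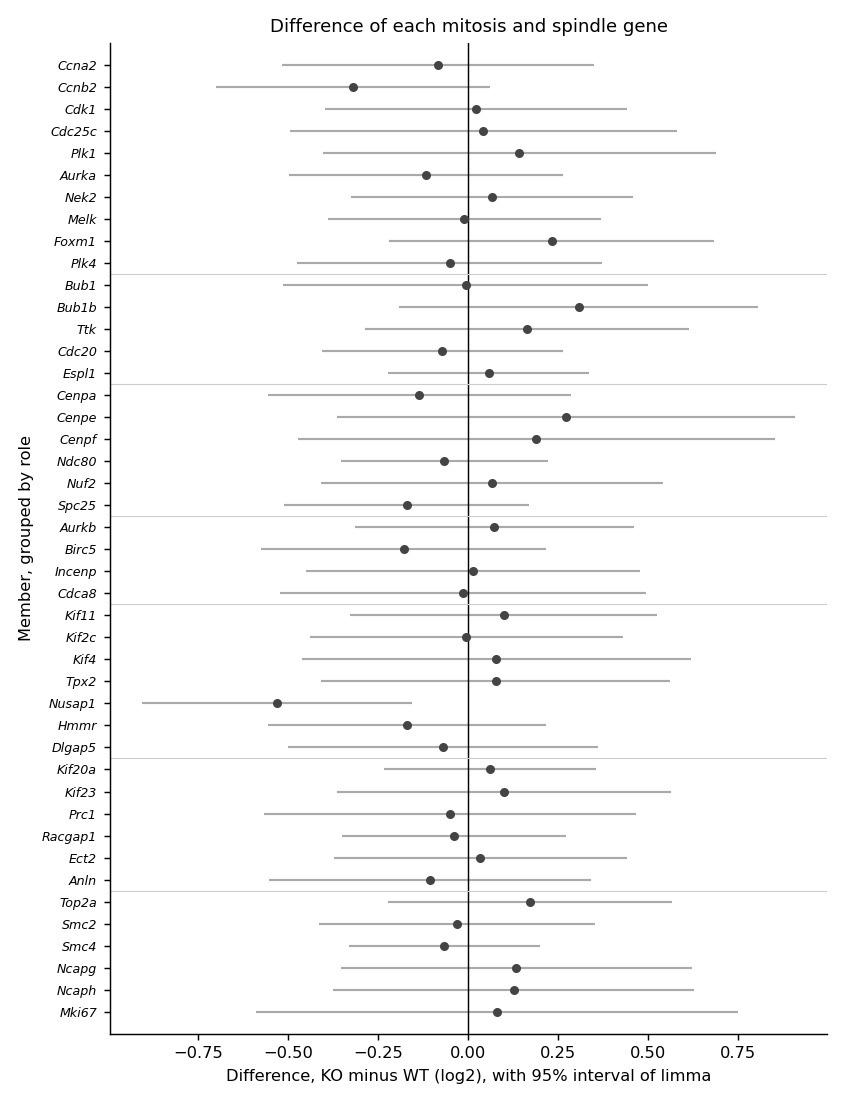
Difference of each member, KO minus WT, in log2 units (x axis), with points at the limma estimate and bars for its 95% confidence interval, and members in rows by role. Nusap1 at -0.53 is the 1 member whose interval leaves out 0.

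Among the kinases, cyclins and regulators of entry, 10 of 11 listed members were measured, 5 with a positive and 5 with a negative difference, between -0.32 and 0.23. Ccnb2, the cyclin partner of Cdk1 that is found at the Golgi, had a lowest level of 8.47, a median of 9.68 and a highest of 9.96 in KO tumours, against 9.40, 9.73 and 10.24 in WT tumours. KO6, KO8 and KO4 lay below every WT tumour, and the other 6 KO tumours lay within the WT range. The difference was -0.32 (SE 0.18, limma adjusted p = 0.781). Cdk1, the kinase that drives entry, ran from 7.85 through a median of 9.57 to 9.74 in KO tumours and from 8.62 through 9.33 to 9.46 in WT tumours. Its KO values spread to both sides, with 5 KO tumours above every WT tumour and KO6 below them all, and the difference was 0.02 (SE 0.20, limma adjusted p = 0.992), or -0.02 after quantile normalization.

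Foxm1, the transcription factor that activates many late cell cycle genes, had 5.27, 5.77 and 6.52 as its lowest, median and highest level in KO tumours, against 5.04, 5.71 and 6.66 in WT tumours. In both genotypes a few tumours stood above the others, KO1, KO2 and KO3 and then WT1 and WT2, and the difference was 0.23 (SE 0.22, limma adjusted p = 0.864). Plk1, a kinase of centrosomes, kinetochores and cytokinesis, ran from 5.08 through a median of 6.17 to 7.11 in KO tumours and from 5.45 through 6.05 to 7.13 in WT tumours. Its upper values came from the same 5 tumours, and the difference was 0.14 (SE 0.26, limma adjusted p = 0.937). The other 6 were Ccna2 (cyclin A2) at -0.08, Cdc25c, a phosphatase that activates Cdk1, at 0.04, Aurka, the Aurora kinase of the spindle poles, at -0.12, Nek2, a kinase of centrosome separation, at 0.07, Melk, a kinase of dividing cells, at -0.01, and Plk4, the kinase of centriole duplication, at -0.05.

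**Figure D4:**
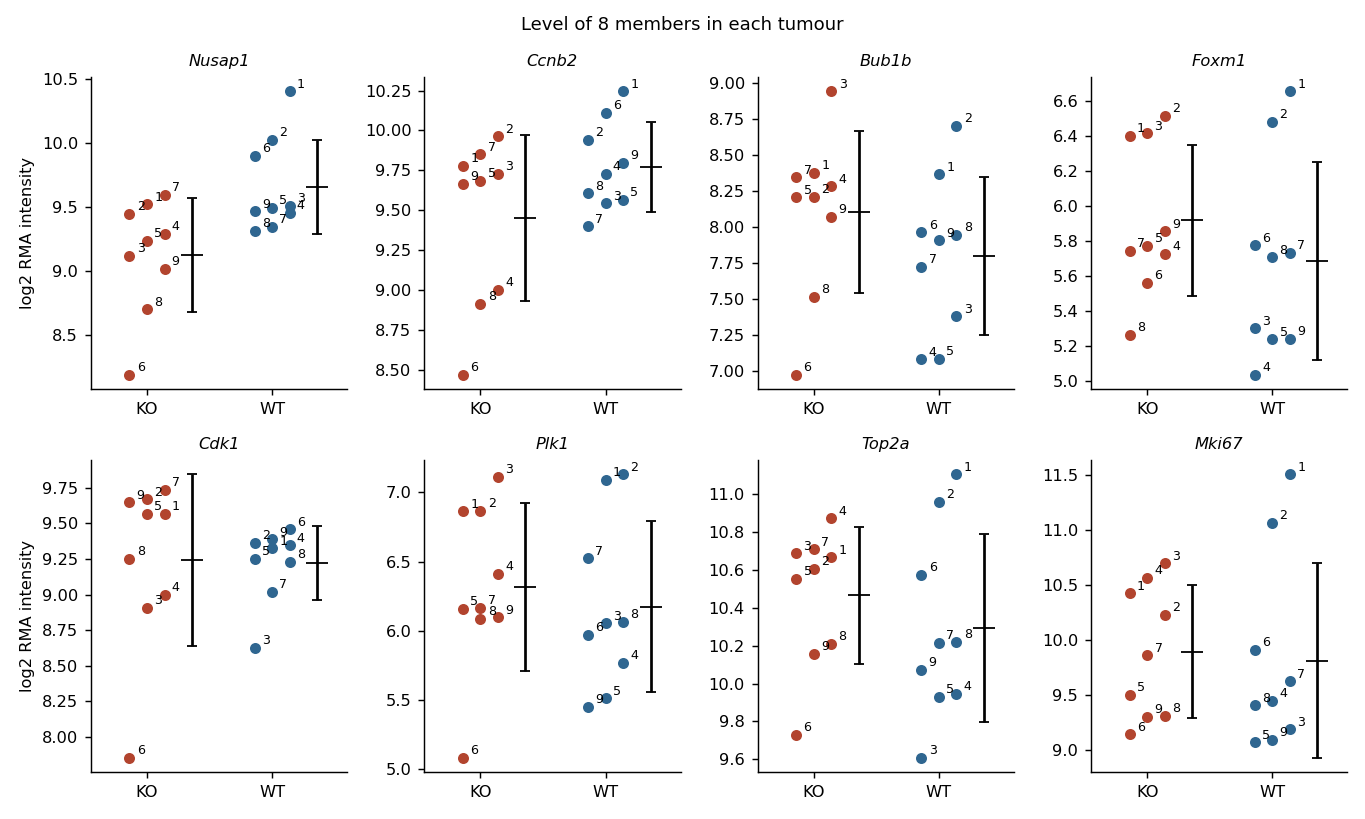
Log2 RMA intensity (y axis) of 8 members in each tumour, KO in red at the left and WT in blue at the right of each panel, numbered by replicate, with the group mean and 1 SD beside them. In the Nusap1 panel 6 KO tumours lie below every WT tumour, while in the other 7 panels most KO tumours lie within the WT range or, for Cdk1, on both sides of it.

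The checkpoint, anaphase-promoting complex and separase group had 5 members, 3 positive and 2 negative, between -0.07 and 0.31. Bub1b, the checkpoint protein BubR1, ran from 6.97 through a median of 8.21 to 8.95 in KO tumours and from 7.08 through 7.91 to 8.70 in WT tumours. In the KO group 7 tumours lay above the WT median, but only KO3 exceeded every WT tumour, and the difference was 0.31 (SE 0.24, limma adjusted p = 0.831). Ttk, the checkpoint kinase Mps1, ran from 6.24 through 7.58 to 7.65 in KO tumours and from 6.40 through 7.16 to 7.75 in WT tumours, and KO minus WT was 0.16 (SE 0.22, limma adjusted p = 0.904). Its KO values were crowded near their upper end, with KO6 at the bottom.

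Cdc20, the activator of the anaphase-promoting complex that the checkpoint restrains, had 6.32, 7.42 and 7.70 as its lowest, median and highest level in KO tumours, against 7.12, 7.30 and 8.02 in WT tumours. WT2 stood above every other tumour and KO6 below, and the difference was -0.07 (SE 0.16, limma adjusted p = 0.952), or 0.05 without KO6. Espl1, the protease separase, ran from 4.90 through 5.52 to 5.90 in KO tumours and from 5.17 through 5.36 to 5.76 in WT tumours. Its KO values spread beyond the WT range on both sides, 3 above and 3 below, with a difference of 0.06 (SE 0.13, limma adjusted p = 0.955). Bub1, the kinase that recruits checkpoint proteins to kinetochores, had a difference of -0.01, with its lowest level of all 18 tumours in WT3 (7.09).

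Kinetochore and centromere members numbered 6, 3 positive and 3 negative, between -0.17 and 0.27. Cenpe, the motor that moves chromosomes toward the spindle equator, ran from 7.92 through a median of 8.19 to 9.25 in KO tumours and from 7.53 through 8.04 to 9.72 in WT tumours. WT1 and WT2 lay above every KO tumour and 4 WT tumours lay below them all, so the WT tumours framed the KO tumours, and the difference was 0.27 (SE 0.31, limma adjusted p = 0.885). Cenpf, a large coiled-coil protein of the outer kinetochore, ran from 6.58 through 7.38 to 8.46 in KO tumours and from 6.75 through 6.94 to 8.93 in WT tumours, and KO minus WT was 0.19 (SE 0.32, limma adjusted p = 0.927). Its highest tumours were again WT1 and WT2.

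Ndc80 and Spc25, subunits of the complex that holds the microtubule end, had SDs of 0.30 and 0.37 over the 18 tumours, against 0.71 for Cenpe and 0.73 for Cenpf. Ndc80 ran from 8.07 through 9.11 to 9.41 in KO tumours and from 8.88 through 9.16 to 9.23 in WT tumours, and KO minus WT was -0.07 (SE 0.14, limma adjusted p = 0.946), or 0.06 without KO6. The WT tumours were close together, and KO tumours lay on both sides of them, 4 above and KO6 below. Spc25 ran from 7.51 through 8.71 to 8.93 in KO tumours and from 8.37 through 8.75 to 9.30 in WT tumours, and KO minus WT was -0.17 (SE 0.16, limma adjusted p = 0.868). KO6 again lay lowest, and WT6 alone lay above every KO tumour. Nuf2, the partner of Ndc80, had a difference of 0.07, and Cenpa had -0.14.

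The chromosomal passenger complex, which corrects faulty attachments and then moves to the central spindle, had 2 positive and 2 negative members. Aurkb, its kinase, ran from 6.56 through a median of 7.57 to 7.95 in KO tumours and from 6.90 through 7.17 to 7.997 in WT tumours, and KO minus WT was 0.07 (SE 0.19, limma adjusted p = 0.959). The ranges nearly coincided, with KO8 rather than KO6 lowest. Birc5, the subunit survivin, ran from 8.63 through 9.69 to 9.91 in KO tumours and from 8.88 through 9.68 to 10.41 in WT tumours, and KO minus WT was -0.18 (SE 0.19, limma adjusted p = 0.878). Here 3 WT tumours lay above every KO tumour, while the medians were alike. The other subunits, Incenp, the scaffold, and Cdca8, borealin, had differences of 0.01 and -0.01.

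Spindle motors and microtubule factors numbered 7, 3 positive and 4 negative, and included the member with the lowest p. Nusap1, a protein that binds and bundles microtubules near chromosomes, had 9.52, 9.45, 9.12, 9.29, 9.24, 8.19, 9.60, 8.70 and 9.02 in KO1 to KO9, against 10.40, 10.02, 9.51, 9.46, 9.49, 9.90, 9.35, 9.32 and 9.47 in WT1 to WT9. Of the KO tumours 6 lay below every WT tumour, and WT1, WT2 and WT6 lay above every KO tumour, with KO1, KO2 and KO7 inside the WT range. The means were 9.13 ± 0.45 in KO tumours and 9.66 ± 0.37 in WT tumours (SD, n = 9 each). The difference was -0.53 (SE 0.18, 95% interval -0.91 to -0.16), with an unadjusted limma p of 0.00769 and a limma adjusted p of 0.699. Nusap1 therefore did not pass the threshold over all genes.

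Set against the other members of the same tumour, Nusap1 separated the genotypes more than its level did. Nusap1 was the member with the smallest p in these same tumours, so what follows is not an independent test of it. Its level minus the mean of the other 43 members had a lowest value of 0.79 (KO3), a median of 1.07 and a highest of 1.36 (KO7) in KO tumours, against 1.33 (WT8), 1.66 and 1.96 (WT3) in WT tumours. All KO tumours but KO7 lay below every WT tumour. A limma fit with the mean of all 44 members as a covariate, added after the data had been seen, gave Nusap1 a difference of -0.54 (SE 0.09, 95% interval -0.74 to -0.34, unadjusted p = 1.6e-05, adjusted p = 0.0856), rank 3 of all genes. With 1 tumour left out in turn that fit gave -0.58 to -0.50 and limma adjusted p-values of 0.0383 to 0.24, and the value was below 0.05 without WT7, WT8 or KO7 only. In that fit 2 members, Nusap1 and Ccnb2 (-0.33), were lower at an unadjusted limma p below 0.05, where 4.45% of all genes were, 1 member, Bub1b (0.30), was higher, where 3.8% were, and 0 passed the adjusted threshold, which 0.00502% of genes did.

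**Figure D5:**
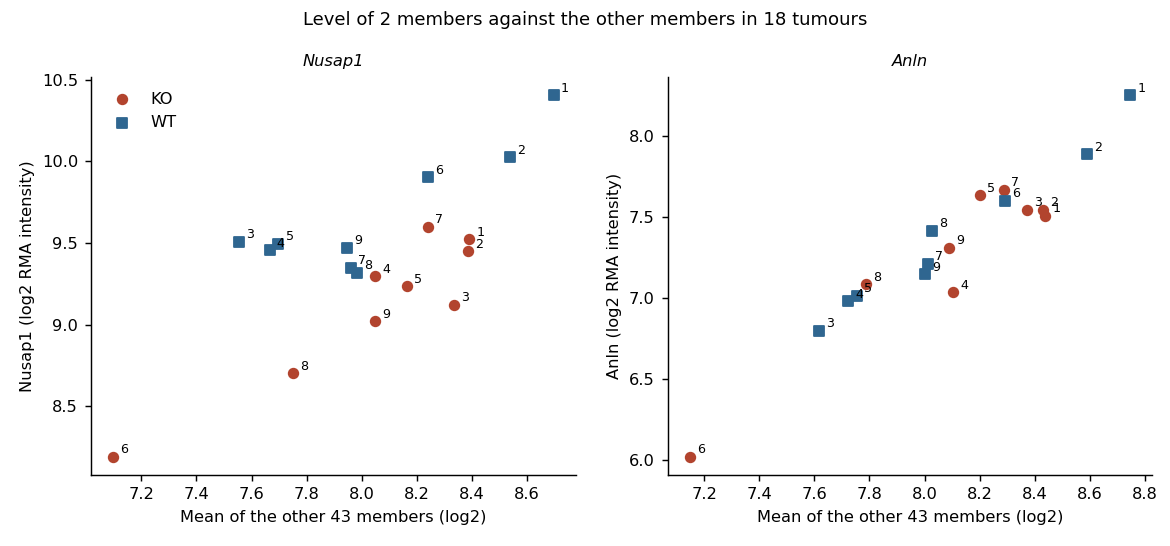
Log2 RMA intensity of Nusap1 (left) and Anln (right) on the y axis against the mean of the other 43 members on the x axis, 1 point per tumour, KO as red circles and WT as blue squares, numbered by replicate. At like means of the other members, KO tumours lie below WT tumours for Nusap1, while for Anln both genotypes lie along 1 band.

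Kif11, the motor that pushes the spindle poles apart, ran from 8.23 through a median of 9.60 to 9.71 in KO tumours and from 8.61 through 9.18 to 10.06 in WT tumours. KO6 was lowest and WT1 and WT2 lay above every KO tumour, with a difference of 0.10 (SE 0.21, limma adjusted p = 0.945). Hmmr, a receptor for hyaluronan that also acts at spindle poles, ran from 6.79 through 8.13 to 8.40 in KO tumours and from 7.64 through 8.09 to 8.62 in WT tumours, and KO minus WT was -0.17 (SE 0.19, limma adjusted p = 0.879). The medians lay close together, and KO6 was again apart. The other 4 were Kif2c, a motor that shortens microtubules, at -0.01, Kif4, a motor on chromosome arms, at 0.08, Tpx2, the activator of Aurora A, at 0.08, and Dlgap5, a factor that stabilises kinetochore fibres, at -0.07.

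Central spindle and cytokinesis members numbered 6, 3 positive and 3 negative, between -0.11 and 0.10. Prc1, which cross-links the microtubules of the central spindle, ran from 6.48 through a median of 7.67 to 8.42 in KO tumours and from 6.79 through 7.48 to 8.75 in WT tumours. The ranges overlapped over most of their length, and the difference was -0.05 (SE 0.25, limma adjusted p = 0.983), or 0.09 without WT1. The motors Kif20a, which carries passengers to the midzone, and Kif23, a part of centralspindlin, had 0.06 and 0.10. Racgap1, the other part of centralspindlin, had -0.04, Ect2, the exchange factor that turns on RhoA at the furrow, had 0.03, and Anln had -0.11.

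Members of chromosome structure, with the proliferation antigen Mki67, numbered 6, 4 positive and 2 negative, and had the highest median difference of the role groups, 0.10. Top2a, the topoisomerase that untangles sister chromatids, ran from 9.73 through a median of 10.60 to 10.87 in KO tumours and from 9.61 through 10.22 to 11.11 in WT tumours. Most KO tumours lay above the WT median, but WT1 and WT2 lay above all of them, and the difference was 0.17 (SE 0.19, limma adjusted p = 0.881). Mki67, the coat of mitotic chromosomes known as Ki-67, ran from 9.14 through 9.86 to 10.70 in KO tumours and from 9.07 through 9.45 to 11.51 in WT tumours, and KO minus WT was 0.08 (SE 0.32, limma adjusted p = 0.979). Of all members Mki67 had the largest SD over the 18 tumours, 0.74, and a 5.43-fold range. Smc4, an ATPase of condensin, had the smallest SD, 0.27, and a 1.83-fold range. Smc4 ran from 10.48 through 10.74 to 11.11 in KO tumours and from 10.38 through 10.84 to 11.25 in WT tumours, and KO minus WT was -0.07 (SE 0.13, limma adjusted p = 0.939). The other condensin members were Smc2 at -0.03, Ncapg at 0.13 and Ncaph at 0.13.

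The mean of the erythroid markers was lowest in KO6 and highest in WT1, as was the member mean. All 12 measured markers had a negative difference, 6 of them at an unadjusted limma p below 0.05, where 3.87% of all genes were lower, and 0 passed the adjusted threshold (lowest limma adjusted p = 0.665). Their mean was 7.20 ± 0.44 in KO tumours and 7.71 ± 0.61 in WT tumours (SD, n = 9 each), a difference of -0.51 (SE 0.25). A limma fit with the mean of these markers except Tfrc as a covariate, added after the data had been seen, gave the members higher differences. In it 42 of 44 differences were positive with a median of 0.32, against -0.04 over all genes. At an unadjusted limma p below 0.05, 22 of 44 members were higher in KO tumours, where 6.93% of all genes were, and 0 were lower, where 5.55% were. The members vary together over tumours, so this is not a count of independent results. The covariate itself differed by genotype (-0.54, SE 0.25), and no other marker list was fitted as a covariate. None of the 44 members passed the adjusted threshold in this fit, which 0.00502% of all genes did. The lowest limma adjusted p of a member was 0.192, for Top2a, whose difference was 0.52 (SE 0.14).

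With 1 tumour left out in turn, 15 to 26 members were higher and 0 lower in the erythroid fit (unadjusted limma p below 0.05). The mean member difference was then 0.29 to 0.41. No share over all genes is given for these leave-out fits, so the member counts have no background beside them. With every tumour kept, Bub1b had 0.69 (SE 0.21), Mki67 0.69 (SE 0.23) and Kif11 0.47 (SE 0.16) in the erythroid fit. Their limma adjusted p-values were 0.198, 0.233 and 0.237. Nusap1 had -0.18 (SE 0.12, limma adjusted p = 0.57), so its difference was smaller there than without the covariate. The other marker lists with mostly negative differences were T cell (9 of 9), neutrophil (10 of 10), macrophage (10 of 11) and NK and cytotoxic (8 of 9), while pan-B had 8 of 11 positive, with a median difference of 0.38, and endothelial and stromal markers 6 of 10 negative. Of the 11 pan-B markers 6 were higher in KO tumours at an unadjusted limma p below 0.05, where 2.83% of all genes were, and 0 passed the adjusted threshold (lowest limma adjusted p = 0.699). Their part in the member levels was not tested.

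Other genes of mitosis, from a list of 119 of which 116 were measured, stood near the background as well. Of these 66 had a positive and 50 a negative difference, with a median of 0.04, and 0 passed a limma adjusted p of 0.05. At an unadjusted limma p below 0.05, 3 were higher in KO tumours (2.59%, against 2.83% of all genes) and 2 lower (1.72%, against 3.87%), so neither share exceeded that of all genes. The higher ones were Nipbl, the loader of cohesin (0.63, SE 0.23), Pds5a, a regulator of cohesin (0.42, SE 0.19), and Cenpo, a subunit of the inner kinetochore (0.32, SE 0.12). The lower ones were Cenpl, another inner kinetochore subunit (-0.40, SE 0.16), and Cdca3, a factor in the destruction of Wee1 (-0.39, SE 0.17). Their limma adjusted p-values lay between 0.699 and 0.721.

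Nipbl had 8.28, 8.71 and 9.72 as its lowest, median and highest level in KO tumours, against 6.90, 8.19 and 9.00 in WT tumours, and 4 KO tumours lay above every WT tumour. The lowest level of Nipbl, and of Pds5a (7.82), was in WT3, the array that correlated least with the others. WT3 also had the lowest mean of the cohesin and condensin genes outside the members, 7.40. By sublist, cohesin and condensin genes outside the members had 11 positive and 4 negative differences with a median of 0.22, the highest of the 7 sublists. The median was 0.01 for 20 genes of entry control, 0.08 for 17 of the anaphase-promoting complex and separase control, 0.06 for 12 of the spindle checkpoint, and -0.01 for 25 of kinetochore and centromere. It was 0.02 for 21 of spindle, centrosome and motors and 0.08 for 6 of cytokinesis. DNA replication genes had 18 positive and 14 negative differences with a median of 0.04, and 11 measured cell cycle brakes had 4 and 7 with a median of -0.01, with 0 of either list at an unadjusted limma p below 0.05.

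The members lie on 16 chromosomes, and 7 of them, Aurka, Bub1, Bub1b, Spc25, Tpx2, Nusap1 and Ncaph, lie on chromosome 2, which also carries Prdm11. Of the 5 members with the smallest p, 3 lie there. These are Nusap1, Bub1b and Spc25, separated from Prdm11 by 181, 151 and 382 measured genes, with Spc25 on the other side of Prdm11 from both. Their differences, -0.53, 0.31 and -0.17, do not share a direction, and their unadjusted limma p-values were 0.00769, 0.213 and 0.307. The next member of chromosome 2, Aurka, ranked 12 by p. Over all 1732 measured genes of the chromosome, 7.16% had an unadjusted limma p below 0.05, against 6.70% of all genes. DNA inherited with the Prdm11 allele and loss of Prdm11 itself cannot be told apart by this design.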

How the data were processed

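Total RNA of 18 tumours was read on 1 Affymetrix array each, with 9 Prdm11 KO and 9 Prdm11 WT tumours grouped by the labels' genotype. The deposited values are linear probe set intensities from RMA, as the submitters' processing notes name it. Sources used here give no RMA version, genome build, scan date or batch, and no within-batch value could be computed. Intensities ran from 1.63 to 14996 and were transformed to log2 with no pseudocount, as the design foresaw for linear values. Equal values between 2 arrays were rare (up to 0.045% of probe sets over 153 pairs), so no array's values are a copy of another's. The labels name a separate mouse for each tumour, and on that ground each array was taken as 1 replicate. Of 35556 probe sets, 21789 had 1 symbol in the platform annotation, 1621 had several and 12146 had none. They gave 19938 genes, each by its probe set of highest mean, and 999 genes had more than 1.

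Genes were fitted with limma 3.58.1 (lmFit, eBayes) in R 4.3.3 with no covariate, two-sided, with Benjamini-Hochberg adjustment over all genes and a threshold of 0.05. No p was computed for the member mean. Other steps used Python 3.11.15 (pandas 2.3.3, numpy 2.4.6, scipy 1.17.1) and figures matplotlib 3.10.9. The fit was tested on simulated data. The number of arrays limits the precision. The members, role groups, other lists and tests were chosen with earlier results of these data known. Full values are given for the 10 members of smallest p, for anchors of each role and for the 3 of largest and the 3 of smallest SD. For the other lists of mitosis and cell cycle genes, those at an unadjusted limma p below 0.05 are named. The design had instead set the genes of smallest p in each sublist. Cell type markers are given by list, not gene by gene. Promoters are RefSeq sequences on GRCm38.p6, matched by gene. Alternatives covered scaling, probe set choice, a filter on dim genes, the variance model, array weights, a block by replicate number, tumours left out in turn and the promoter window. Covariates for erythroid markers and for the member mean were added after the data had been seen.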

Additional observations from a re-analysis of the deposited data

Results flagged for a closer look

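Among 44 groups of 9 tumours, the members given in full and the member mean in each genotype, 9 held a tumour whose gap to the nearest other was larger than the 95% critical value of Dixon's test, where chance flags about 1 in 20 groups. KO6 was the tumour in 8 of the 9, always as the lowest. Its member mean was 7.12, against 7.77 in the next KO tumour. By gene, KO6 had 7.85 for Cdk1 (next 8.90), 5.08 for Plk1 (next 6.09), 6.32 for Cdc20 (next 7.005) and 8.07 for Ndc80 (next 8.88). It had 7.51 for Spc25 (next 8.32), 8.23 for Kif11 (next 9.09) and 6.79 for Hmmr (next 7.60). The ninth was WT2, the highest WT tumour for Cdc20, at 8.02 (next 7.49). These groups are not independent, since the members vary together over tumours.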

How the results depend on the processing

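The count of members past the adjusted limma threshold was 0 in every alternative run, and the count of other mitosis genes likewise. Over all genes the count was 2 after quantile normalization (Cd59a and Svbp), 0 with the replicate block, and 0 to 1 with 1 tumour left out. Members higher at an unadjusted p below 0.05 numbered 22 with the erythroid covariate, 1 with the member mean covariate and 0 to 1 with 1 tumour left out (1 without KO6), and members lower numbered 0 and 2 in those covariate fits. The SD of the member mean over KO tumours was 0.22 to 0.44 with 1 tumour left out. In the 150 bases before the start, TTTGAA was in 11 members, both motifs in 9 and CCAAT in 26. Of 21 members given in full, 11 kept their direction in all 27 settings. With the erythroid covariate Ccnb2 was 0.019, Cdc20 0.16, Ndc80 0.0547, Spc25 0.019, Birc5 0.18, Hmmr 0.10, Prc1 0.41 and Smc4 0.10. With array weights Cdc20 was 0.0267, Ndc80 0.003 and Prc1 0.0838, and after quantile normalization Cdk1 was -0.0209. With 1 tumour left out Cdk1 ran from -0.0537 to 0.20, Cdc20 from -0.12 to 0.0497, Ndc80 from -0.11 to 0.0556, Prc1 from -0.16 to 0.0932 and Mki67 from -0.0197 to 0.29. The tumours whose absence turned the direction were KO1, KO2, KO5, KO7, KO9, WT3 or WT7 for Cdk1, KO6 or WT2 for Cdc20, KO6 for Ndc80, KO6, WT1 or WT2 for Prc1, and KO3, KO4, WT5 or WT9 for Mki67. The cause of these changes was not tested. Over all genes, unadjusted counts higher and lower were 1117 and 1398 with array weights, and the count lower was 508 after median centring and 344 without dim genes. Replicate numbers were not taken as pairs in the main fit. Deviations of same-numbered tumours correlated at -0.23 to 0.49, over 0.1 in 4 of 9. Without values for different numbers beside them, these do not show whether the numbers pair the tumours.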

Other observations

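A second component, of arbitrary sign, held 12.9% of the variance of the members and gave them weights of opposite sign. Cenpe, Mki67, Cenpf, Plk1 and Foxm1 weighed most on one side, and Nuf2, Cenpa, Cdk1, Spc25, Bub1 and Hmmr on the other. Its scores were highest in KO6 (0.47), KO3 (0.37) and KO4 (0.32), then WT2 (0.23) and WT1 (0.22), and lowest in WT9 (-0.32), WT6 (-0.25) and KO5 (-0.24). KO6 had the lowest member mean, but its Foxm1 level was 5.56, above that of KO8 (5.27), and its Mki67 level of 9.14 lay close to the next KO tumour (9.30).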
